A study of Gallus gallus with 60 samples.

Results

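The MAP kinase cascade genes of the chicken were taken as all probe sets of the Affymetrix chicken array that carry a single gene symbol beginning with MAPK, MAP2K, MAP3K or MAP4K and a number. This gave 104 of the 38535 probe sets, standing for 35 of the 13009 genes that carry a single symbol. Of these genes, 31 encode kinases. The other 4 carry such a symbol without being a cascade kinase, namely the JNK scaffolds MAPK8IP1 and MAPK8IP3, MAPK1IP1L and MAP3K7CL. A probe set is a group of short probes read as 1 value, and 31 of the 35 genes had more than 1 of them. A further 2 probe sets of MAP2K5 also carry a second symbol and were left out.

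MAP kinases are the last step of 3-tiered relays. A MAP3K phosphorylates a MAP2K, the MAP2K phosphorylates a MAPK, and MAP4Ks can act on the MAP3Ks. In the brain, the ERK branch is best known for growth factor signalling and synaptic plasticity, and the JNK and p38 branches for stress, inflammation and neuronal development. The MAP kinases ERK1, ERK2 and ERK5 were not analysed here.

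RNA came from the posterior cerebrum, freed of meninges, of 60 laying hens aged 65 to 67 weeks, each on an array of its own. There were 28 LSL layers (Lohmann Selected Leghorn, a white line) and 32 LB layers (Lohmann Brown, a brown line), all kept in a small group housing system. Compartments of 36 hens supplied 13 LSL and 15 LB layers, and compartments of 54 hens supplied 15 LSL and 17 LB layers. Tissue was from the right side in 54 hens and from the left in 6 (2 LSL, 4 LB). The authors chose hens by line, group size and tier, and told stressed from unstressed layers by handling behaviour, plumage and skin lesions. Neither tier nor stress class is in the labels, so neither was in the models. Both lines are commercial hybrids, the lines were not mixed within a compartment, and the compartment of a hen is not given in the sources used here. The paper describes several compartments of each line on every tier. Without the compartment of each hen, an effect of compartment could not be modelled. Standard errors that treat hens as independent may therefore be too small.

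The deposited values are on the log2 scale and were centred on the median of each probe set, separately over hens 1 to 30 and over hens 31 to 60. These are called the 2 array sets below, and both hold both lines (15 LSL and 15 LB hens, then 13 LSL and 17 LB hens). A value of 0 is the median of the hen's own array set. Such values hold no level of expression, so it could not be seen which genes were expressed at all. The lines were compared over all hens with limma, with the array set as a block and Benjamini-Hochberg adjustment over all 38535 probe sets, and a probe set passed at an adjusted p under 0.05. Differences are LSL minus LB on the log2 scale. In whole tissue, fewer cells of a type and less RNA per cell cannot be told apart. Among markers of the cell types that the tissue could hold, no probe set passed for astrocytes (0 of 7), microglia and blood leucocytes (0 of 15) or erythrocytes (0 of 9), and 1 of 17 passed for neurons, 1 of 14 for meninges and choroid plexus, 2 of 10 for oligodendrocytes (MBP 0.18, CLDN11 0.71) and 4 of 19 for blood vessels (CLDN5 0.17 and 0.26, PECAM1 -0.22 and -0.37). Of all probe sets, 18.3% passed. Median differences were 0.13 for erythrocyte markers (7 of 9 positive) and 0.09 for oligodendrocyte markers (8 of 10 positive). They were 0.04 for neurons, 0.03 for astrocytes, blood vessels and meninges with choroid plexus, and -0.05 for microglia and blood leucocytes, against -0.01 over all probe sets. The part of these cell types in the differences of the kinases was not tested. Among the LB hens, numbers 7, 8 and 16 stood apart, all of them in the first array set and from compartments of 54, with centred values of the actin 5' probe set minus those of the actin 3' probe set of -1.69, -2.88 and -2.89, against -1.33 to 0.24 in the other 57 hens. The lowest of these 57 was LSL hen 9, and LB hen 7 lay nearer to it than to hens 8 and 16. The actin differences are relative to the other hens of the array set and compare no levels.

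Between the lines, 16 of the 104 cascade probe sets passed, or 15.4%, against 18.3% of all probe sets. Of these, 7 were higher in LSL (8.13% of all probe sets were) and 9 were lower (10.2% of all). After quantile normalization between arrays the split of the members was 9 higher and 5 lower, and after subtraction of each array's median 7 higher and 5 lower. The share of higher calls over all probe sets went from 44.4% to 50.9% and 49.4%, while the median difference over all probe sets moved by less than 0.01, from -0.01 to -0.002 under both. No member passed with a 2-fold difference, which 0.392% of all probe sets did. The median difference of the members was 0.001 and their median size 0.046, compared with -0.01 and 0.047 over all probe sets.

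The 16 probe sets belonged to 13 genes. MAP3K7, MAP3K3, MAP2K5 and MAPK10 were higher in LSL, and MAP3K13, MAPK14, MAPK4, MAP3K2, MAP3K8, MAP3K5, MAP4K3, MAP2K3 and MAP3K4 were lower. No gene had probe sets called in both directions, but for none of the 13 did every probe set pass, and 30 further probe sets of these genes did not. The sizes of the 16 called differences had a median of 0.19, and only 1 exceeded 0.5. The ranges of the lines overlapped at all 16. Between 20 and 26 of the 28 LSL hens lay on the called side of the LB median of their own array set. Of the 16 probe sets, 12 carry the suffix _at and 4 the suffix _s_at, which marks probe sets that can read several transcripts. The sequences under the probes were not examined. A line difference in expression can therefore not be told from one in how well the probes bind.

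**Figure D1:**
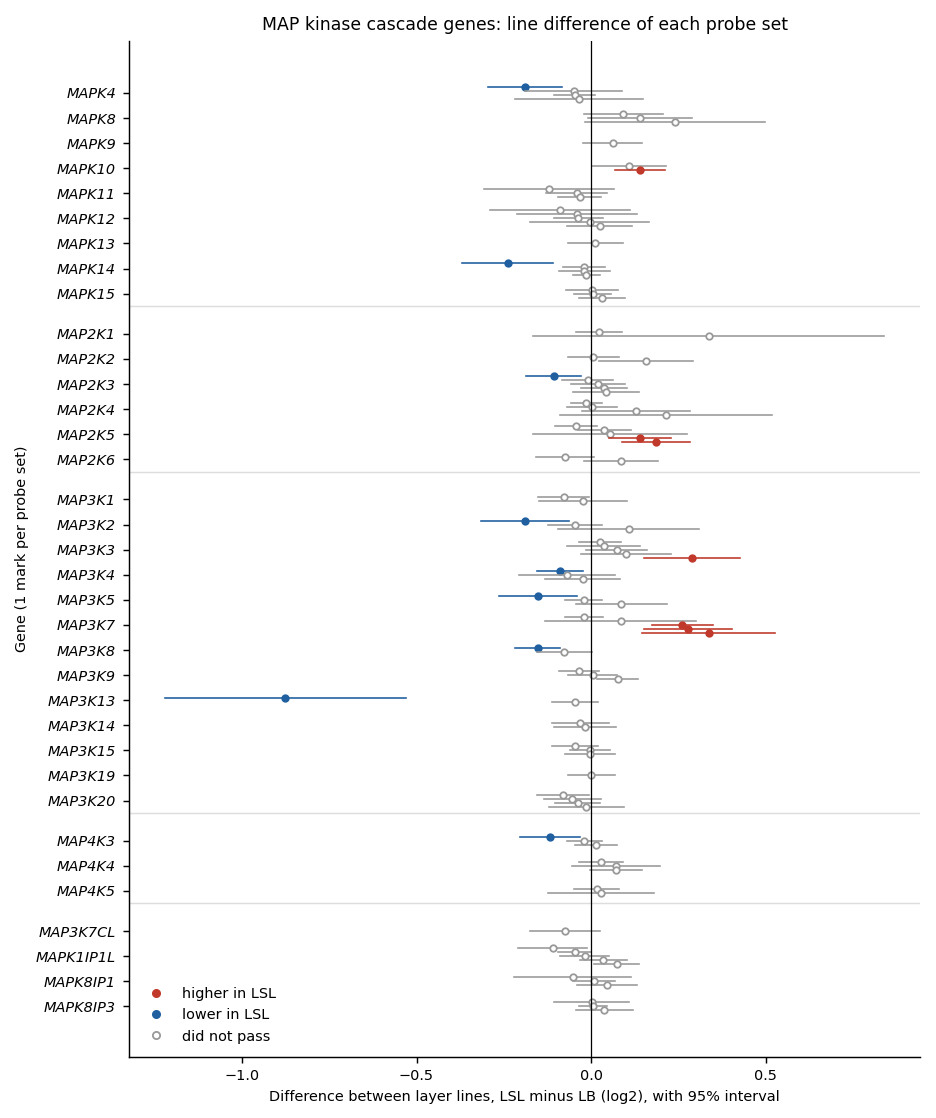
Difference between the lines (LSL minus LB, log2, horizontal axis) of each of the 104 probe sets, by gene and tier from MAPK at the top to the other genes at the bottom, with 95% intervals. Filled red marks (7) passed as higher and filled blue marks (9) as lower in LSL, open marks did not pass, and apart from MAP3K13 at -0.88 all called marks lie between -0.24 and 0.34.

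Among the MAP kinases themselves, 3 of 26 probe sets of 9 genes passed (11.5%, against 18.3% of all probe sets), 1 higher and 2 lower. MAPK14 encodes p38 alpha, the p38 kinase best known from inflammation and stress. At its _s_at probe set, MAPK14 ranged from -0.44 over a median of -0.05 to 0.29 in LSL hens and from -0.31 over 0.06 to 0.78 in LB hens. The lines overlapped, although 25 LSL hens lay below the LB median of their array set and 7 below every LB hen of it. MAPK14 was lower in LSL by -0.24 (standard error 0.07, limma adjusted p = 0.00477), with -0.29 in hens 1 to 30 and -0.19 in hens 31 to 60. The 3 other probe sets of MAPK14 gave -0.01, -0.02 and -0.02 and did not pass, and the widest of their 95% intervals ran from -0.09 to 0.05.

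The other p38 kinases did not pass. MAPK11 gave -0.12 to -0.03 at 3 probe sets, MAPK12 -0.09 to 0.02 at 5 and MAPK13 0.01 at 1. Together with MAPK14, 2 of the 13 p38 probe sets had a positive difference, and their median was -0.03. MAPK11 and MAPK12 are neighbours in the genome, as are MAPK13 and MAPK14, and probes of such relatives may read more than 1 of them.

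The JNK kinases phosphorylate JUN and act in neurite growth and neuronal death. All 6 of their probe sets had a positive difference, with a median of 0.12, whereas 16924 of the 38535 probe sets did. MAPK10, the JNK that is most restricted to neurons, was the one that passed. At 1 of its 2 probe sets it ranged from -0.22 over 0.11 to 0.39 in LSL and from -0.38 over -0.07 to 0.31 in LB. It was higher in LSL by 0.14 (standard error 0.04, adjusted p = 0.00262), with 24 LSL hens above the LB median of their array set. The other MAPK10 probe set gave 0.11 (adjusted p = 0.166). MAPK9 gave 0.06 and MAPK8 0.09, 0.14 and 0.24, none of them past the threshold. Without LB hens 7, 8 and 16, the values of MAPK8 were 0.02, 0.03 and 0.06, since these hens lay below the other 57 at each of its probe sets.

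MAPK4, an atypical kinase of the ERK family, was lower in LSL at 1 of 4 probe sets. The lowest, median and highest values there were -0.41, -0.08 and 0.24 in LSL and -0.38, 0.09 and 0.59 in LB. This was a difference of -0.19 (standard error 0.05, adjusted p = 0.00681), with 26 LSL hens below the LB median of their array set but 3 below every LB hen of it. Its 3 other probe sets lay between -0.05 and -0.03. MAPK15, the other atypical ERK measured, gave 0.002 to 0.03 and did not pass.

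In the MAP2K tier, 3 of 20 probe sets of 6 genes passed (15%, against 18.3% of all probe sets), 2 higher and 1 lower. MAP2K5, the kinase that activates ERK5, was higher in LSL at 2 of its 5 probe sets. At the first of these it ranged from -0.20 over 0.08 to 0.62 in LSL and from -0.46 over -0.09 to 0.41 in LB, a difference of 0.19 (standard error 0.05, adjusted p = 0.00312). At the second the difference was 0.14 (standard error 0.04, adjusted p = 0.0170). Its other 3 probe sets lay between -0.04 and 0.05. The values of the 2 called probe sets varied together over the hens, if only loosely, as described below.

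MAP2K3, an activator of p38, was lower in LSL at 1 of 5 probe sets (-0.11, standard error 0.04, adjusted p = 0.0424). The remaining 4 lay between -0.01 and 0.04. MAP2K6, the other activator of p38, gave -0.07 and 0.09, and MAP2K4, which acts on JNK and p38, gave -0.01 to 0.21, none of them past the threshold. MAP2K1 and MAP2K2, the activators of ERK1 and ERK2, did not pass either. One probe set of each gave 0.02 and 0.01, while the other ones, described below, gave 0.34 and 0.16.

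The MAP3K tier held 9 of the 16 called probe sets, out of 38 of 13 genes (23.7%, against 18.3% of all probe sets), 4 of them higher and 5 lower, and its median difference was -0.02. MAP3K7, also known as TAK1, links receptors of inflammatory cytokines and of TGF-beta to JNK, p38 and NF-kB. It was higher in LSL at 3 of 5 probe sets. At the one with the smallest p, the lowest, median and highest values were -0.40, 0.16 and 0.46 in LSL hens and -0.43, -0.09 and 0.14 in LB hens. Of the LSL hens, 26 lay above the LB median of their array set and 16 above every LB hen of it. The difference was 0.26 (standard error 0.04, adjusted p = 2.70e-06), and it was 0.26 in each array set taken alone.

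The second probe set of MAP3K7, also of the type _s_at, differed by 0.28 (standard error 0.06, adjusted p = 6.44e-04), and it passed in each array set alone (0.35 and 0.20). The third, of the type _at, differed by 0.34 (standard error 0.10, adjusted p = 0.0069), with one LB hen as low as -1.82. Without LB hens 7, 8 and 16 the 3 differences of MAP3K7 were 0.25, 0.20 and 0.21, and all 3 passed (adjusted p = 9.03e-06, 0.00195 and 0.0176). The third of these moved most, from 0.34 with these hens. The 2 other probe sets of MAP3K7 gave 0.08 and -0.02 and did not pass.

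MAP3K13, known as LZK, acts on JNK and takes part in the response of axons to injury. It had the largest difference among the members. At the called 1 of its 2 probe sets it ranged from -1.58 over -0.48 to 1.05 in LSL hens and from -0.59 over 0.47 to 1.62 in LB hens. The difference was -0.88 (standard error 0.17, adjusted p = 7.56e-05), which is 1.83-fold lower in LSL, with -1.08 in hens 1 to 30 and -0.67 in hens 31 to 60. The hens of LSL did not form 1 continuous range. Of the 28, 20 lay at -0.32 or below and 8 at 0.28 or above, with none in between, and 16 lay below every LB hen of their array set. The 8 higher LSL hens were 4 from compartments of 36 and 4 from compartments of 54, and 4 came from each array set. In LB, 10 hens lay below 0 and 22 above.

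The spread of this MAP3K13 probe set within groups (SD 0.68) was wider than that of 99.5% of all probe sets. LB hens 7, 8 and 16 gave the highest values of all 60 hens (1.35, 1.26 and 1.62), and without them the difference was -0.77 (adjusted p = 4.81e-04). The other MAP3K13 probe set gave -0.05 (adjusted p = 0.372). Whether the called probe set reads a difference in expression or a sequence difference between the lines was not tested.

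**Figure D2:**
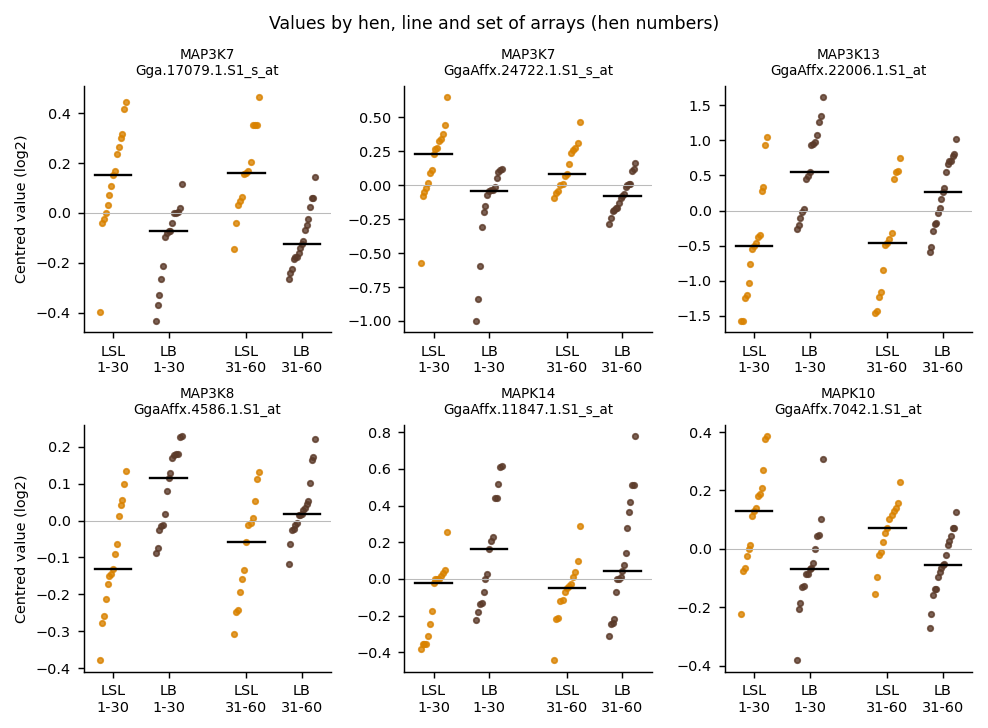
Values by hen (log2, centred within each array set, vertical axis) of 6 called probe sets of MAP3K7, MAP3K13, MAP3K8, MAPK14 and MAPK10, by line and array set (hens 1 to 30, hens 31 to 60). Points are hens and bars are medians, the lines overlap in every panel, and MAP3K13 shows the gap in LSL between -0.32 and 0.28.

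MAP3K8, known as TPL2 or COT, activates the ERK branch downstream of inflammatory receptors. At 1 of 2 probe sets it ranged from -0.38 over -0.11 to 0.13 in LSL and from -0.12 over 0.03 to 0.23 in LB. It was lower in LSL by -0.15 (standard error 0.03, adjusted p = 2.10e-04), and 15 LSL hens lay below every LB hen of their array set. Its SD within groups was 0.127, against a median of 0.145 over all probe sets. The second MAP3K8 probe set gave -0.08 (adjusted p = 0.192).

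MAP3K2 and MAP3K3 are close relatives that both act on MAP2K5. MAP3K3 was higher in LSL at 1 of 5 probe sets, where its lowest, median and highest values were -0.55, 0.12 and 0.58 in LSL and -0.93, -0.17 and 0.35 in LB (difference 0.29, standard error 0.07, adjusted p = 0.00105). Its other 4 probe sets were positive as well (0.03 to 0.10), but did not pass. Without LB hens 7, 8 and 16 these 4 lay between -0.02 and 0.09, again with no call. MAP3K2 was lower in LSL at 1 of 3 probe sets, by -0.19 (standard error 0.06, adjusted p = 0.0266), while its other 2 gave -0.05 and 0.11. Without LB hens 7, 8 and 16 the difference of MAP3K3 was 0.22 and still passed, whereas that of MAP3K2 was -0.15 and did not (adjusted p = 0.0974).

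The remaining called members were MAP3K5 (ASK1, a sensor of oxidative stress, -0.15, adjusted p = 0.0458), MAP3K4 (a kinase that GADD45 proteins activate, -0.09, adjusted p = 0.0441) and, in the MAP4K tier, MAP4K3 (a kinase of amino acid signalling to mTORC1, -0.12, adjusted p = 0.0471). Each was called at 1 of 3 probe sets and lay close to the threshold. The probe sets of MAP4K3 carry more than 1 gene identifier, and 1 of these was not found in the RefSeq gene table. They may thus not all read the same gene. Without LB hens 7, 8 and 16, MAP3K5 and MAP2K3 no longer passed (adjusted p = 0.0968 and 0.136). MAP3K1, MAP3K9, MAP3K14, MAP3K15, MAP3K19 and MAP3K20 lay between -0.08 and 0.08 with no call, as did MAP4K4 and MAP4K5 between 0.02 and 0.07. None of the 12 probe sets of MAPK8IP1, MAPK8IP3, MAPK1IP1L and MAP3K7CL passed (-0.11 to 0.07).

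Within single array sets fewer probe sets passed. In hens 1 to 30, 6 members were called (7.77% of all probe sets), and in hens 31 to 60, 8 members (13.2% of all). MAP3K13 and the 2 _s_at probe sets of MAP3K7 passed in both. All 16 differences had the same sign in both array sets. They were picked by the fit over both sets together, so the shared sign is no separate support. No member passed the limma test of the difference between the sets, and 5 had an unadjusted p under 0.05. The share of all probe sets in that test was not taken, so these counts cannot be set against it.

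Probe sets of 1 gene were compared over the 60 hens, after removing the means of array set and group, by Pearson's r and Spearman's rho with permutation tests within these strata. These were 28 pairs within MAP3K7, MAP2K5, MAP3K13, MAPK14 and MAPK10, genes chosen after their calls were seen, with p-values adjusted over the pairs. The 3 called probe sets of MAP3K7 went together (r = 0.43, 0.61 and 0.91 and rho = 0.56, 0.67 and 0.87, with raw permutation p = 0.00305, 4e-05 and 1e-05 for r and adjusted p = 0.0122, 3.73e-04 and 1.4e-04; a p of 1e-05 is the smallest that the permutations can give). After leaving out 2 hens, r was 0.33, 0.50 and 0.90. The highest of these values belongs to the last pair, whose identifiers share a stem. An uncalled probe set of MAP3K7 gave r = 0.75 and 0.65 with this pair (adjusted permutation p = 1.4e-04 and 7.28e-04). With the remaining called one it gave 0.12 (adjusted p = 0.622). The other uncalled one gave r = 0.13 to 0.24 with the called ones. Going together was thus not particular to the called probe sets. For every pair, the hens left out were the 2 farthest from the median at 1 of its probe sets only. Leaving out 2 hens cannot remove all 3 LB hens that stood apart in the actin difference. Whether the probe sets of a pair go together without those LB hens was therefore not tested.

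For MAPK10, the called and the other probe set gave r = 0.54 and rho = 0.54 (raw permutation p = 8e-05 and 4e-05, adjusted p = 5.6e-04 and 3.73e-04; r = 0.46 without 2 hens). The called pair of MAP2K5 gave r = 0.34 and rho = 0.34 (raw permutation p = 0.0106 and 0.0141, adjusted p = 0.033 and 0.0439; r = 0.38 without 2 hens). In contrast, the called probe set of MAP3K13 showed little relation to its other one (r = 0.09, rho = 0.05, raw permutation p = 0.58 and 0.709, adjusted p = 0.651 and 0.735; r = 0.15 without 2 hens). The called probe set of MAPK14 gave r between -0.07 and 0.23 with the other 3, none past the threshold. Over all 28 pairs, 10 values of r passed. No such share was taken for pairs of probe sets of different genes, so this count cannot be set against one.

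Group size made no difference that passed. Between compartments of 54 and 36 hens, with the line and the array set in the model, 0 of the 104 members passed by limma, against 0.0104% of all probe sets, and 11 had an unadjusted p under 0.05 (10.6%, against 10.3% of all). The 2 smallest p-values belonged to the same gene, MAPK8IP3 (JIP3), a scaffold that ties JNK signalling to transport along axons. At 1 of its 3 probe sets the mean was 0.14 in LSL hens of 36 and -0.03 in those of 54, and 0.16 in LB hens of 36 and -0.06 in those of 54. This was a difference, 54 minus 36, of -0.19 (standard error 0.05, adjusted p = 0.168), made up of -0.17 in LSL and -0.21 in LB. A second one gave -0.13 (adjusted p = 0.206), and the third probe set of the gene 0.04.

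The values of the 4 groups overlapped at both probe sets. In hens 31 to 60 alone the first of them differed by -0.35 (standard error 0.06) and passed (adjusted p = 0.00884), while in hens 1 to 30 the value was -0.04. Of all probe sets, 0.33% passed for group size in hens 31 to 60 alone and 0% in hens 1 to 30 alone. Next in order of p came the MAPK10 probe set that did not pass between the lines (0.14, adjusted p = 0.298) and a MAP2K2 probe set (-0.09, adjusted p = 0.345).

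**Figure D3:**
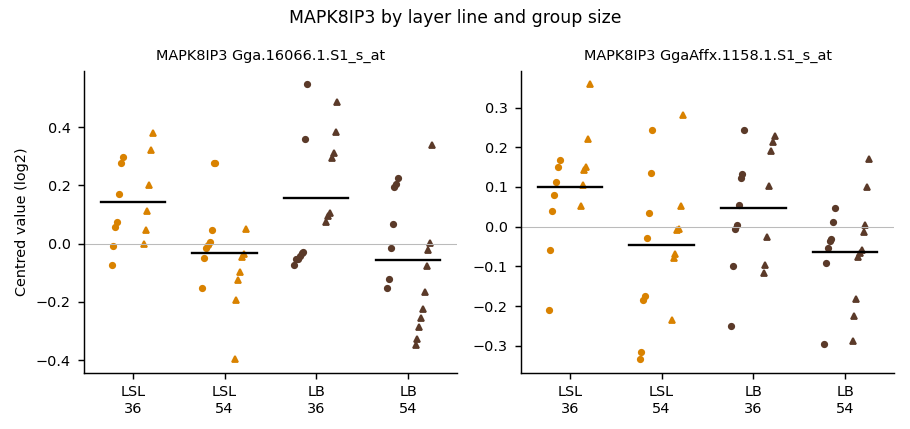
Values by hen (log2, centred, vertical axis) of the 2 MAPK8IP3 probe sets with the smallest p in the comparison of group sizes, by line and hens per compartment. Circles are hens 1 to 30, triangles hens 31 to 60 and bars group means, which in the left panel were 0.14 and -0.03 in LSL and 0.16 and -0.06 in LB.

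Whether the line difference itself depended on group size was tested as an interaction. It passed for 0 of 104 members and for 0% of all probe sets, and 18 members had an unadjusted p under 0.05 (17.3%, against 12.9% of all). Taken within group sizes, 4 members differed between the lines in compartments of 36 (9.07% of all probe sets) and 14 in compartments of 54 (15.5% of all). Without LB hens 7, 8 and 16, which were all kept in compartments of 54, these were 5 (10.7% of all) and 12 (11.5% of all).

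For MAP3K7 the line differences in compartments of 36 were 0.13, 0.10 and 0.09 at the 3 called probe sets and those in compartments of 54 were 0.38, 0.44 and 0.56. The interactions of 0.25, 0.34 and 0.47 did not pass (adjusted p = 0.247, 0.276 and 0.303), and without the 3 hens they were 0.23, 0.20 and 0.23. The smallest p of the interaction belonged to a MAP2K3 probe set that had no call over all hens, with 0.13 in compartments of 36 and -0.13 in those of 54 (interaction -0.26, standard error 0.07, adjusted p = 0.233). MAP3K4 differed by -0.18 in compartments of 36 and by -0.01 in those of 54, with an interaction of 0.17 (adjusted p = 0.291).

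**Figure D4:**
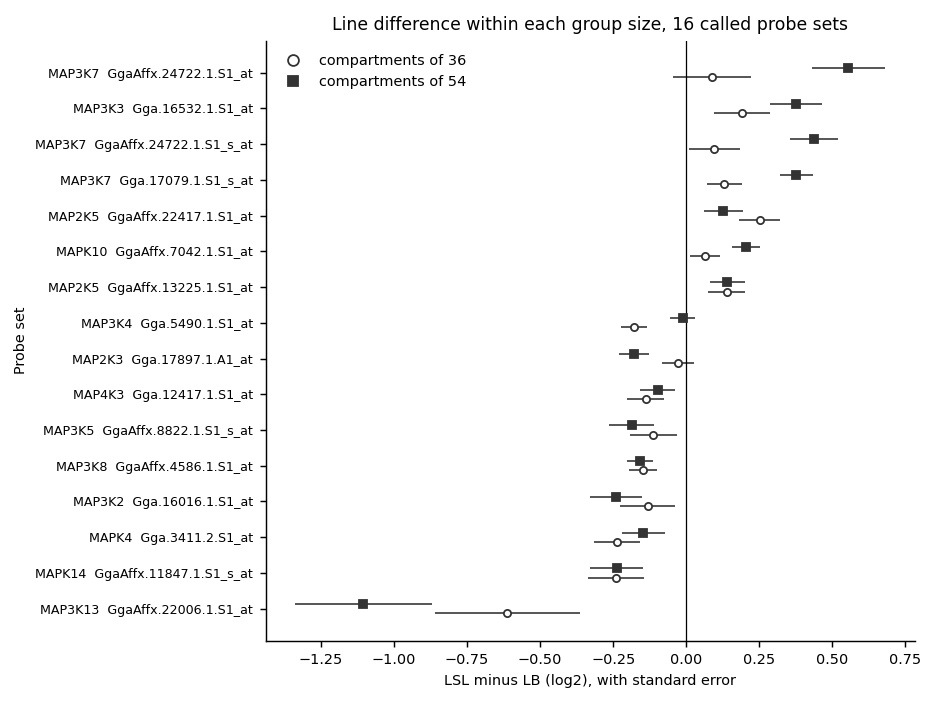
Line difference (LSL minus LB, log2, horizontal axis) of the 16 called probe sets within compartments of 36 (open circles) and of 54 hens (filled squares), with standard errors. The MAP3K7 probe sets lie at 0.09 to 0.13 in compartments of 36 and at 0.38 to 0.56 in those of 54, and no interaction passed.

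With the exception of MAP3K13, the members with the widest spread did not pass between the lines. Within groups and array sets the median SD of the members was 0.155, compared with 0.145 over all probe sets, and it ran from 0.066 at a MAPK14 probe set to 0.89 at 1 of the 2 probe sets of MAP2K1. At the latter, LB hens 7, 8 and 16 had values of -3.57, -4.98 and -3.99, against -1.41 to 0.97 in the other 57 hens. The widest MAP2K4 probe set gave -2.20, -2.67 and -2.53 in these hens, that of MAPK8 -1.36, -2.32 and -1.47, and that of MAP3K7 -1.11, -1.86 and -1.33.

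At 15 of the 104 members (14.4%, against 4.63% of all probe sets) all 3 hens lay below the other 57, and at 1 (0.962%, against 1.78% of all), the MAP3K13 probe set, they lay above them. The 15 belonged to MAP2K1, MAP2K4, MAPK8, MAP3K3, MAP3K4, MAP3K7, MAP3K9, MAP4K4 and MAPK1IP1L. With the difference of the actin probe sets as a covariate, chosen because these hens stood apart in it, its slope passed as positive for 26 members (13.4% of all probe sets) and as negative for 13 (16.3% of all). The fits without these hens leave out LB hens only. RNA integrity was assessed by the authors before hybridization, but no value per hen was used here. What sets these hens apart was not tested.

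**Figure D5:**
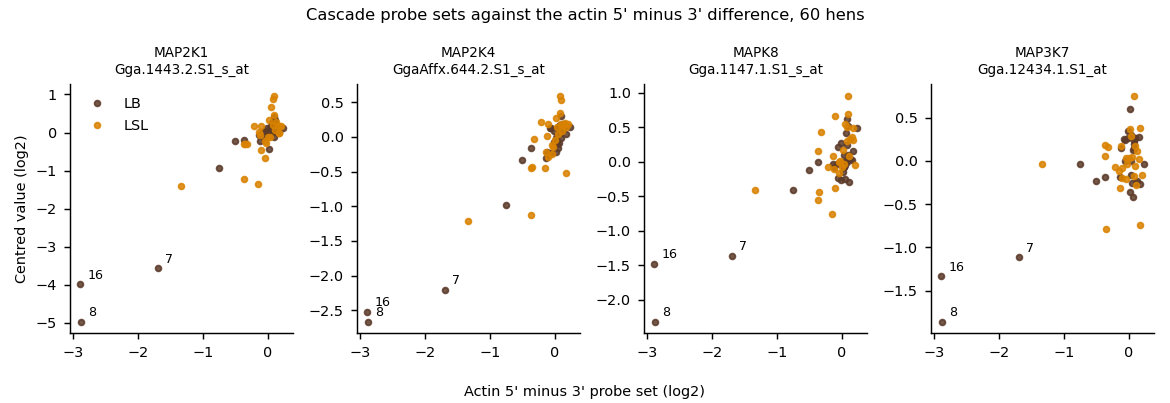
Values (log2, centred, vertical axis) of 1 probe set each of MAP2K1, MAP2K4, MAPK8 and MAP3K7 against the actin 5' minus 3' difference (log2, horizontal axis) in 60 hens coloured by line. LB hens 7, 8 and 16 are numbered and lie apart, for MAP2K1 at -3.57, -4.98 and -3.99 against -1.41 to 0.97 in the others.

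Without these 3 hens 15 members differed between the lines (18.4% of all probe sets), of which 13 were among the 16 above. The 2 others were MAP2K2 and MAPK8IP1. The _s_at probe set of MAP2K2 went from 0.16 (adjusted p = 0.102) to 0.24 (standard error 0.05, adjusted p = 2.84e-04) and gave 0.22 with the actin covariate (adjusted p = 1.02e-04). That of MAPK8IP1, the scaffold JIP1, went from -0.05 (adjusted p = 0.746) to -0.17 (adjusted p = 0.00992) and gave -0.15 with the covariate (adjusted p = 8.74e-04). The line difference of the wide MAP2K1 probe set, 0.34 over all hens, was -0.09 without them and did not pass in either case.

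Genes that work with the cascades were read from 7 lists, of which 94 of 119 genes were measured with 233 probe sets. Of these, 38 passed (16.3%, against 18.3% of all probe sets), 8 as higher and 30 as lower in LSL, where 8.13% and 10.2% of all probe sets did. Their median difference was -0.02, compared with -0.01 over all probe sets. The counts of the single lists stand against the same 18.3%. Among the scaffolds and adaptors 8 of 43 passed. TAB2, the adaptor that holds MAP3K7 at ubiquitin chains, was lower at 2 of 6 probe sets (-0.26, adjusted p = 2.27e-06, and -0.16, adjusted p = 0.0323). TAB1 and TAB3 did not pass. SPAG9 (JIP4), a JNK scaffold, was lower at 1 of 10 (-0.32).

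Feedback inhibitors passed at 2 of 12 probe sets. SPRY1, which restrains the RAS to ERK route, ranged from -0.63 over -0.25 to 0.29 in LSL and from -0.21 over 0.20 to 0.79 in LB. Its difference was -0.43 (standard error 0.05, adjusted p = 1.95e-09), and it passed in each array set alone. SPRED2, a relative of SPRY1, gave -0.74 (adjusted p = 0.00148) at 1 probe set and 0.07 at the other.

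Phosphatases that switch MAP kinases off passed at 7 of 33. PTPN5 (STEP), a neuronal phosphatase of ERK and p38, gave 1.18 at one probe set (adjusted p = 2.10e-15), but -0.25, -0.21 and -0.09 at 3 others that also passed, so no direction can be given for the gene. DUSP19 was higher (0.34) and DUSP4 lower (-0.20, 1 of 3 probe sets). None of the 19 probe sets of kinases activated by MAP kinases passed. Upstream, 2 of 43 passed among small GTPases and their exchange factors (RAP1A -0.19, RRAS -0.13) and 1 of 25 among RAF and related kinases (STK4 -0.37).

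Transcription factors and immediate early genes downstream passed at 18 of 58 probe sets (31%, against 18.3% of all), 3 higher and 15 lower (8.13% and 10.2% of all), with a median difference of -0.04. The 18 probe sets belonged to 10 of 23 genes, so several came from the same gene. Of these genes, 3 had a higher and 9 a lower probe set, 2 of them both. MEF2C, a target of p38 and ERK5 in neurons, was lower in LSL at all 3 of its probe sets (-0.95, -0.83 and -0.80, with adjusted p = 1.44e-07, 1.27e-07 and 2.23e-09). At the last of these it ranged from -1.09 over -0.23 to 0.16 in LSL and from -0.31 over 0.42 to 1.42 in LB, and all 3 passed in each array set alone. MEF2A was lower at 2 of 5 probe sets (-0.40 and -0.39). CREB1 was higher at 1 of 4 (0.91) with 0.02, -0.04 and -0.00 at the others, and ETS1 passed in both directions (0.54 and -0.10 to -0.23).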

How the data were processed

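The authors hybridized RNA of 60 hens to Affymetrix chicken arrays, 1 per hen, and deposited log2 values made by RMA in GeneSpring GX, with quantile normalization and centring on the median. Each probe set of the deposited table had a median of 0 (within 1e-06) in hens 1 to 30 and in hens 31 to 60, so no filter on low expression and no level could be had. All 38535 probe sets were tested in R 4.3.3 with limma 3.58.1 (lmFit, eBayes without trend) and data.table (version 1.17.8), with the array set as a block. Line and group size were taken from the sample labels, and 0 columns of values were left unused. The number of arrays limits the precision.

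For the group size the line was in the model, and a fit of 4 groups gave the interaction. Benjamini-Hochberg adjustment ran over all probe sets and the threshold was 0.05. The fit was run on simulated data with normal noise that was independent between hens. Effects of compartments and hens that stand apart were not simulated, so that run cannot speak to them. Symbols were read from the array's probe annotation, which holds 27178 probe sets of 1 symbol, 177 of several and 11180 of none. Of the 37 gene identifiers of the members, 35 were found in the RefSeq table of GRCg7b, used for names and neighbours. Named were MAPK14 and the MAPK genes by range, up to 12 called rises and 12 called falls with the other probe sets of the gene, up to 4 members with the smallest p for group size and for the interaction, and up to 4 genes of each partner list. TAB1 and TAB3, MAP2K2, MAPK8IP1 and the members named for their spread were chosen after their values were seen. The members and lists were chosen with earlier results of these data known.

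Alternatives were no block, the methods' t-test, robust moderation, array weights, quantile normalization, subtraction of array medians, each array set alone, the right side alone, group size and side as covariates, the fit without LB hens 7, 8 and 16, and a covariate for the actin difference. Chosen after seeing the data were the probe sets with suffix _at alone, the test between array sets, and the values by group size without the 3 hens. LB hens 7, 8 and 16 and the actin covariate were likewise picked from values of these data.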

Additional observations from a re-analysis of the deposited data

How the results depend on the processing

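Of the 16 called members, between 12 and 16 kept their call and direction under each alternative that used both array sets, 6 did so in hens 1 to 30 alone and 7 in hens 31 to 60 alone, and none reversed. All these alternatives use hens from which the 16 were picked. MAP3K13 and the 2 _s_at probe sets of MAP3K7 passed under all 12. The number of called members was 6 in hens 1 to 30 alone (2 higher, 4 lower) and 8 in hens 31 to 60 alone (3 lower). In these subsets 7.77% and 13.2% of all probe sets passed, against 18.3% in the main fit. Lower members numbered 5 after quantile normalization and 5 after subtraction of array medians, against 9. Of all probe sets, 19.2% and 17.8% passed in either direction under these 2 settings. Partner probe sets numbered 21 in hens 1 to 30 alone (3 higher, 18 lower), where 7.77% of all probe sets passed. In the main fit they numbered 38, where 18.3% of all passed. Each array set alone holds 30 hens. With each gene read by the probe set of the largest SD, 4 genes were called, not 13, and no such share over all genes was taken. For group size 1 member passed in hens 31 to 60 alone, MAPK8IP3, where 0.33% of all probe sets passed, against 0.0104% in the main fit. The narrowest MAPK14 probe set, at -0.01 and not past the threshold, turned to 0.00598 in hens 31 to 60 alone. The cause was not tested. No paired analysis was possible because no hen number is shared between groups. Values centred by array set give no signal over background, so members near background could not be told from the others.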

Other observations

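The spread of the members was alike in both lines, with a median SD of 0.157 in LSL and 0.153 in LB, and 54 of the 104 were more variable in LB. Of the immediate early genes and growth-related factors among the targets of the cascades, FOS gave -0.00 and did not pass, while ATF3 (-0.22, adjusted p = 1.79e-05), MYC (-0.21, adjusted p = 0.0311) and SRF at 1 of 2 probe sets (-0.18, adjusted p = 4.81e-06) were lower in LSL. FOS, ATF3, MYC and SRF were chosen after their values were seen. In the list they come from, 40 of 58 probe sets and 13 of 23 genes did not pass. Among adaptors, GADD45A (0.15) and LAMTOR2 (0.13) were higher in LSL.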
